A study of Mus musculus with 2 samples.

Results

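The 6 genes described here are Gm11942, Aldh1l1, 1700063D05Rik, Gm10638, Chpt1 and Gm41177, out of 36547 genes listed in either of the tables. They were chosen by the ratio of their UMI counts between the genotypes in pooled germ cells, so their pooled germ cell values describe the choice and were not tested. The ranking behind the choice was taken over 4602 genes with a UMI (unique molecular identifier, the tag that marks 1 captured RNA molecule) in at least 25% of the WT or of the KO germ cells and with 100 UMIs or more in all. Gm11942 and Aldh1l1 ranked first and next among genes higher in KO, and Ptgds followed just outside with a log2 KO over WT ratio of 4.43 against 5.01 for Aldh1l1. Among genes lower in KO, 1700063D05Rik and Gm10638 led. Chpt1 at -1.68 and Gm41177 at -1.59 came after Fxyd2 at -2.16, which is no member, and Cyp4f37 at -1.57 followed just outside.

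Single-cell RNA was sequenced in 1 library of WT testis and 1 library of Alkbh5 KO testis, from C57BL/6 mice 12 weeks old. The KO mice were homozygous offspring of heterozygous parents, carried the deletion in every tissue and were compared with WT mice that carried none. The introduction of the study describes 1 mouse per genotype and its methods 3, so cells of more than 1 animal may be mixed in a library, and nothing given here was checked in a replicate. The WT table held 5756 cell barcodes with 80283221 UMIs and that of KO held 7012 barcodes with 82056760 UMIs, and 45 barcodes occurred in both.

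ALKBH5 removes the N6-methyl mark from adenosines in RNA and is strongly expressed in the testis. In the seminiferous tubule, spermatogonia divide, enter meiosis as spermatocytes and leave it as round spermatids, which elongate into sperm while Sertoli cells support them. Leydig cells outside the tubule make testosterone. The members are of different kinds. Aldh1l1 encodes cytosolic 10-formyltetrahydrofolate dehydrogenase, an enzyme of folate metabolism, and Chpt1 encodes cholinephosphotransferase, which forms phosphatidylcholine in the last step of its synthesis from CDP-choline. Gm11942 is annotated as a processed pseudogene, a copy of an mRNA set back into the genome, 1700063D05Rik and Gm41177 are long intergenic noncoding RNAs, and Gm10638 is a predicted protein-coding gene.

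Clustering of both libraries together gave 17 clusters, of which 13 were germ cell clusters, named from markers as "-like" and told apart by a leading gene. Germ cells made up 97.1% of the WT and 75.1% of the KO barcodes. The cluster led by Cd46 stayed unnamed. Its best scoring class was late round spermatid, but its 10 leading genes held Cd46, a mid round marker, and no late round marker. It carried all 18 mid round and all 3 late round spermatid markers. The KO library held 1171 Leydig-like and 468 Sertoli-like cells against 94 and 48 in WT, and 1064 spermatogonia-like cells against 190. Pooled germ cells of the genotypes therefore differed in stage, and each member was followed cluster by cluster. Levels are given as UMIs per 1000000 UMIs of the same cells (CPM), with 95% intervals in parentheses that cover counting error only. Alkbh5 itself had 575 UMIs in WT germ cells and 5 in KO germ cells, 115 against 1 in spermatogonia-like cells, and 25 against 0 in Leydig-like cells.

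Counts of Gm11942 have to be read beside those of Rplp1, whose transcript it closely resembles. Gm11942 lies at chr4:32964888-32965232 on the plus strand (GRCm38) and its annotated transcript has 345 bases. Those bases aligned without a gap to the 499-base transcript of Rplp1, which encodes the acidic ribosomal stalk protein P1 and lies at chr9:61913284-61914542 on the minus strand. Identity was 97.4%, with 9 mismatches. The transcripts were those of GENCODE vM21. Long stretches of the transcripts are identical, so reads of the 2 genes can be told apart only where they cover a mismatch, and how the counting treated the rest is not given in the sources used here. Gm10073, another Rplp1-like gene, matched Gm11942 at 97.7% of bases with 8 mismatches.

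Gm11942 was near absent from the WT library and present in every cell class of the KO library. In pooled germ cells it had 6 UMIs in WT and 1911 in KO, at 0.0765 (0.0281 to 0.167) and 28.9 (27.6 to 30.2) CPM. At least 1 UMI was found in 0.107% of WT and 26.9% of KO germ cells. The log2 ratio was 8.56 (7.44 to 10.01), and 7.66 when each germ cell cluster had equal weight. Of the 13 germ cell clusters, 8 held no Gm11942 UMI in WT, and all 13 held some in KO.

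The KO level of Gm11942 fell from 101 CPM in spermatogonia-like cells through 68.5 CPM in early spermatocyte-like cells to 9.71 CPM in the late round spermatid-like cells led by Fam71b. It stood at 25.3 CPM in the elongating spermatid-like cells led by Spem1. Rplp1 had the same course in both libraries, from 2746 CPM in WT and 3475 CPM in KO spermatogonia-like cells to 287 and 348 CPM in the Fam71b cells. Set against 1000 Rplp1 UMIs, Gm11942 lay between 25.8 and 36.6 in the 13 KO germ cell clusters, with a median of 31.8. That range was 1.42-fold, where the CPM of Gm11942 ranged 10.4-fold. In WT pooled germ cells there were 0.144 (0.0530 to 0.314) Gm11942 UMIs per 1000 Rplp1 UMIs, against 30.6 (29.2 to 32.0) in KO.

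**Figure D1:**
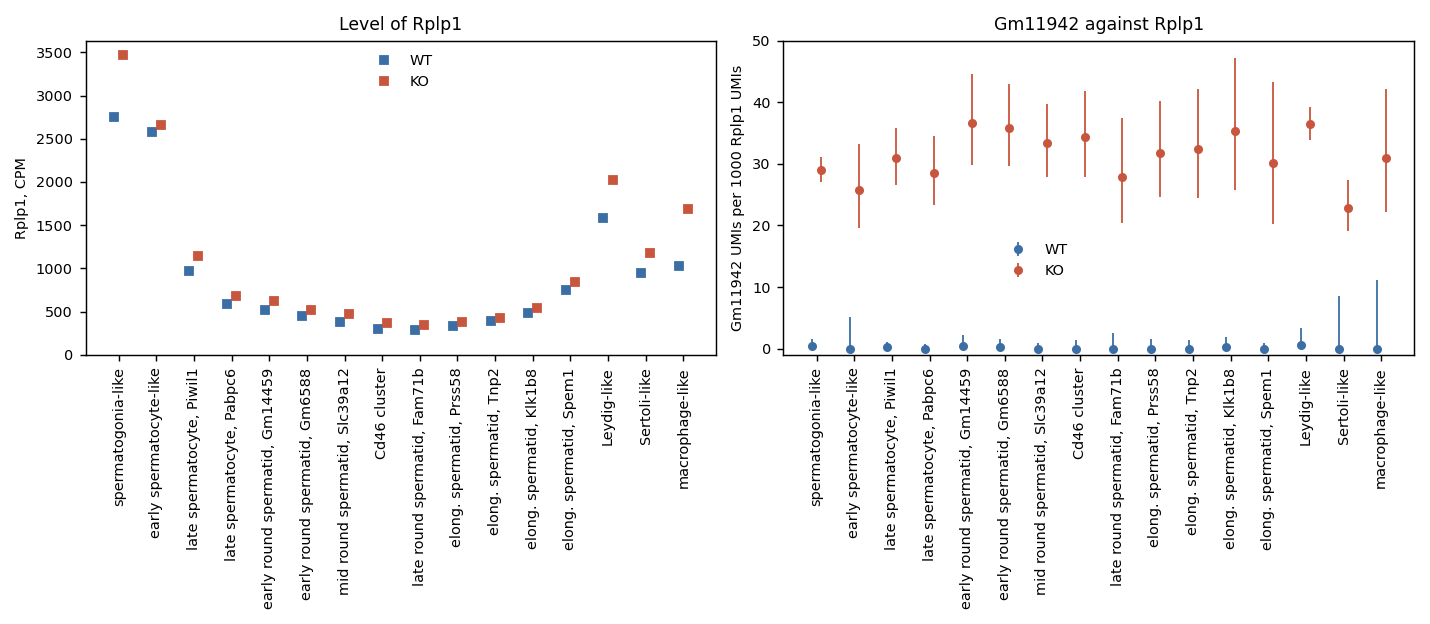
Level of Rplp1 in CPM (left) and Gm11942 UMIs per 1000 Rplp1 UMIs with exact 95% intervals (right) in each germ and somatic cluster, WT in blue and KO in red. Rplp1 falls and rises with stage in both libraries, while Gm11942 per 1000 Rplp1 UMIs lies between 22.9 and 36.6 in the KO clusters and at 0 to 0.610 in WT.

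Somatic cells, which the choice of members did not use, also held more Gm11942 in KO. Leydig-like cells had 1 Gm11942 UMI in WT and 756 in KO, at 0.964 (0.0244 to 5.37) and 73.6 (68.5 to 79.1) CPM, a log2 ratio of 6.26 (3.77 to 11.56). Sertoli-like cells had 0 and 126 UMIs and macrophage-like cells 0 and 42. Taking 3 counts as the limit of a library with none, KO was at least 4.16-fold and at least 5.69-fold higher. For Sertoli-like cells this bound is a log2 ratio of 2.06, where the median over all genes was 0.87 and 43.1% were called higher. Per 1000 Rplp1 UMIs, KO Leydig-like cells had 36.5 (33.9 to 39.2), Sertoli-like cells 22.9 (19.1 to 27.3) and macrophage-like cells 31.0 (22.2 to 42.1). These lay within or just under the range of the germ cell clusters.

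Other Rplp1-like genes did not show this. Rplp1 itself differed between the libraries by log2 0.05 to 0.34 within germ cell clusters, although its pooled germ cell ratio was 0.83. Gm10073 had 127 UMIs over all WT cells and 189 over all KO cells. No other Rplp1-like pseudogene in the tables had more than 49 UMIs in a library, against 7 and 2858 for Gm11942. Gm11942 RNA of its own and Rplp1 RNA assigned to Gm11942 cannot be told apart in these counts.

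Aldh1l1 lies at chr6:90486427-90600203 on the plus strand. It had 127 UMIs in WT and 3453 UMIs in KO pooled germ cells, at 1.62 (1.35 to 1.93) and 52.2 (50.5 to 54.0) CPM. It was found in 1.99% of WT and 34.7% of KO germ cells, and its log2 ratio was 5.01 (4.75 to 5.28), or 5.10 with equal weight per cluster. With Gm11942 it gives 2 of the 6 members called higher by a log2 ratio of at least 1, the direction in which they were chosen, where 20.6% of 17307 genes with at least 100 UMIs were called higher.

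The stages of Aldh1l1 in KO were not those of Gm11942. Its KO level was 10.3 CPM in spermatogonia-like cells and 3.43 CPM, from 3 UMIs, in early spermatocyte-like cells. It reached 41.4 and 82.1 CPM in the late spermatocyte-like clusters led by Piwil1 and Pabpc6 and then fell to between 34.9 and 61.5 CPM in the 7 clusters from mid round spermatid-like cells onward. In WT it was at 0 CPM in 3 clusters and reached at most 4.20 CPM, in the Fam71b cells. Over the 10 clusters with UMIs in both libraries, the log2 ratio ran from 3.76 (3.13 to 4.45) in the Fam71b cells to 7.76 (5.27 to 13.07) in the Piwil1 cells. In the Pabpc6 cells, with 0 and 466 UMIs, KO was at least 220.3-fold higher. The interval or bound lay above 0 in 12 of the 13 clusters. The exception was the early spermatocyte-like cluster, with 0 and 3 UMIs.

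**Figure D2:**
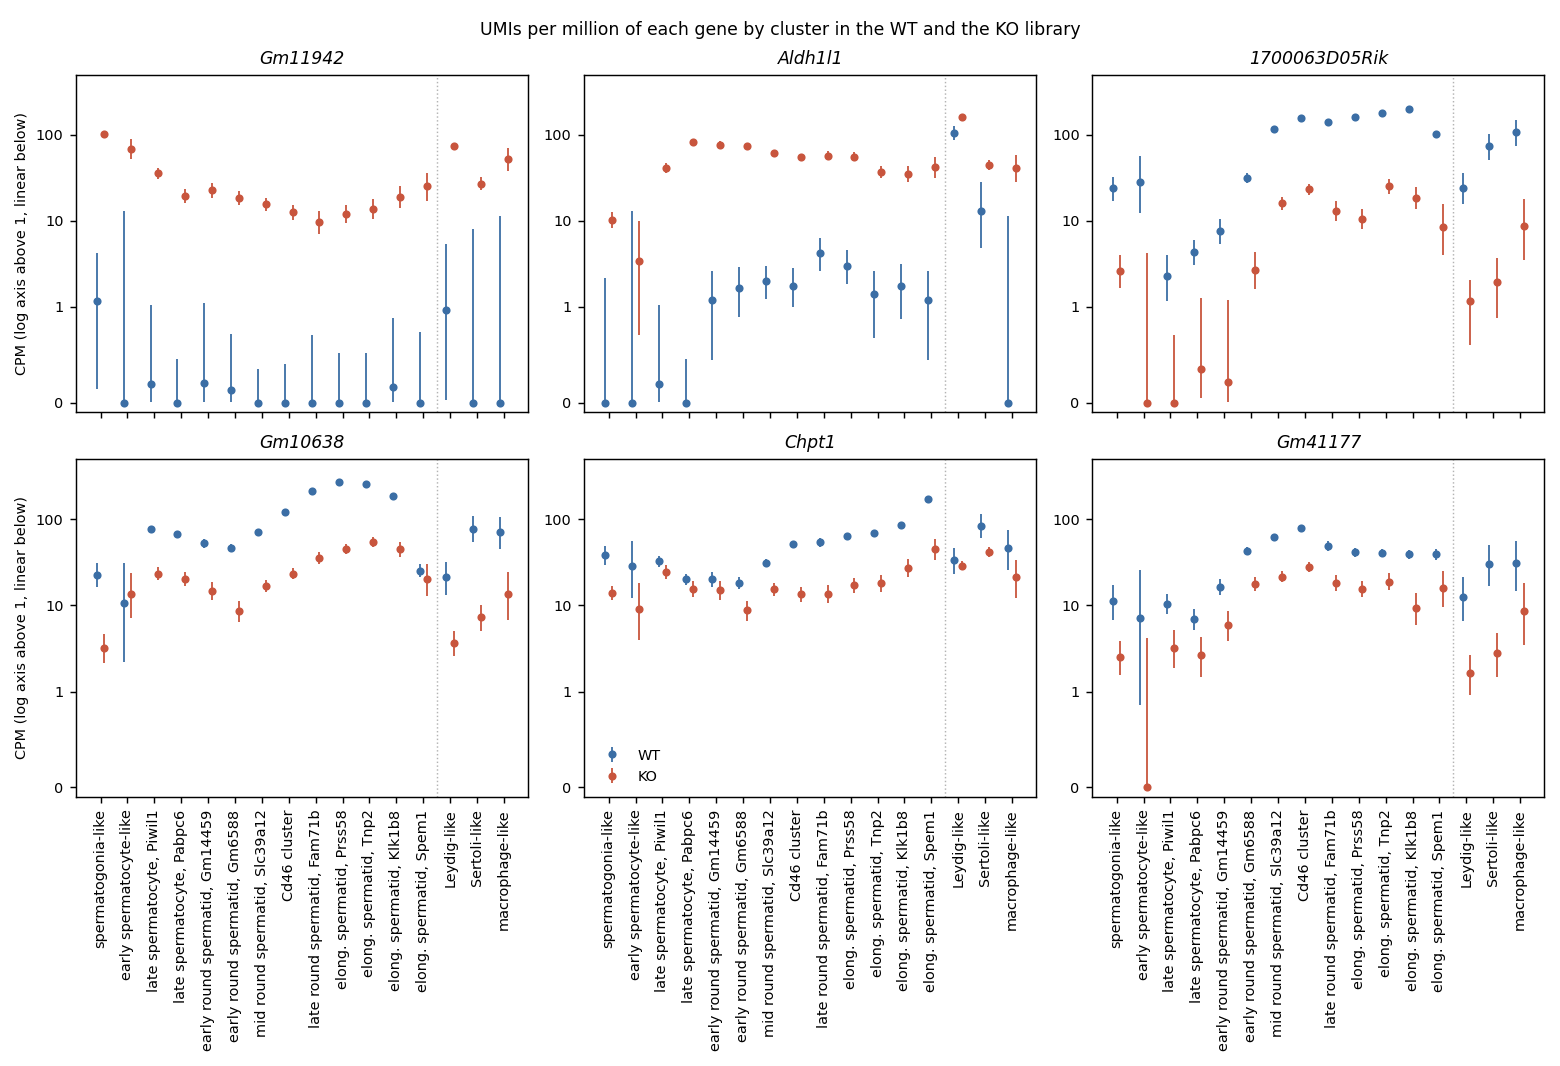
Level of each member in CPM (log axis above 1, linear below) in each germ cluster in order of stage and, right of the dotted line, in 3 somatic classes, WT in blue and KO in red with exact 95% Poisson intervals. Gm11942 is high in every KO class, Aldh1l1 differs in most germ cell clusters and less in Leydig-like cells, and the other 4 members are lower in KO in most classes.

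Leydig-like cells were where Aldh1l1 was highest, in both libraries. They held 110 and 1643 UMIs, at 106 (87.1 to 128) CPM in WT and 160 (152 to 168) CPM in KO. The log2 ratio of 0.59 (0.31 to 0.89) missed the size of 1. Of 7853 genes with at least 100 UMIs in these cells, 4.85% were called higher and 9.72% lower. Gm11942 was the 1 member called, and it passed the filter through its KO counts alone. The members 1700063D05Rik, Gm10638 and Gm41177 had too few UMIs to be tested there, so nothing is read from a count of members. Sertoli-like cells held 6 UMIs of Aldh1l1 in WT and 206 in KO. Their log2 ratio was 1.76 (0.62 to 3.23), but the median over all genes there was 0.87. Over all genes tested there, 43.1% were called higher and 12.7% lower. Gm11942 and Aldh1l1 were called higher and passed the filter through their KO counts, Chpt1 was called lower, and the other 3 members were not tested. Macrophage-like cells held 0 and 33 UMIs, so KO was at least 4.47-fold higher.

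Leydig cell RNA in other droplets was also higher in the KO library, so both were set side by side. In pooled germ cells the summed CPM of 14 Leydig markers reached 0.176% (WT) and 0.367% (KO) of the sum in Leydig-like cells, with a UMI of all 14 markers in both libraries. Aldh1l1 in the same cells reached 1.53% (WT) and 32.6% (KO). In KO Sertoli-like cells the markers were at 1.66% and Aldh1l1 at 27.7%, and in KO macrophage-like cells at 0.957% and 25.7%. The share of Aldh1l1 lay above that of the summed markers in each of these classes. A sum can hide differences between markers, and shares of single markers were not compared. Ptgds and Lcn2, which followed the members higher in KO in the ranking, are both on the marker list. Their pooled germ cell log2 ratios of 4.43 and 2.96 stand beside 5.01 for Aldh1l1. The sum over all 14 markers went from 103.3 CPM (WT) to 300.9 CPM (KO) in these cells. The part of Leydig cell RNA in the Aldh1l1 values was not tested.

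The gene next to Aldh1l1 also differed between the libraries at late stages. Slc41a3, which encodes a magnesium transporter of the solute carrier family, lies 4.5 kb after the end of Aldh1l1 on the same strand. Its level was 33.4 CPM in WT and 33.0 CPM in KO in the Piwil1 cells, a log2 ratio of -0.02 (-0.33 to 0.29). In the elongating cells led by Prss58 it was 2.27 and 15.2 CPM, a ratio of 2.75 (1.97 to 3.62), and in the Spem1 cells it rested on 2 and 9 UMIs, with a ratio of 4.23 (1.96 to 7.48). Pooled over germ cells its ratio was 0.56 (0.46 to 0.67). Gm15756, which overlaps Aldh1l1 on the opposite strand and shares 332 bases with its transcripts, stood at -0.37 pooled and at 0.07 with equal weight. Whether the counting used strand is not given in the sources used here, so reads of Aldh1l1 and Gm15756 in the shared bases cannot be told apart.

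1700063D05Rik had the lowest ratio of the 4602 ranked genes. It lies at chr9:41192446-41217990 on the plus strand. Pooled germ cells held 7954 UMIs in WT and 648 in KO, at 101 (99.2 to 104) and 9.79 (9.05 to 10.6) CPM. A UMI was found in 54.2% of WT and 7.18% of KO germ cells, and the log2 ratio was -3.37 (-3.49 to -3.26), or -3.25 with equal weight. All 4 members chosen for a lower KO level are called lower here, where 1.38% of 17307 genes were called lower.

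In WT the RNA was highest late. It was at 23.99 CPM in spermatogonia-like and 28.5 CPM, from 8 UMIs, in early spermatocyte-like cells, at 2.29 CPM in the Piwil1 cells, 31.4 CPM in the early round spermatid-like cells led by Gm6588, and between 101 and 199 CPM from mid round spermatid-like cells on, highest in the elongating cells led by Klk1b8. The KO library also held most of it from mid round spermatid-like cells on, at a lower level, with 0.352 CPM from 2 UMIs in the Pabpc6 cells and 8.42 to 25.2 CPM in those later clusters. All 13 clusters were lower in KO with an interval that did not reach 0. The log2 ratio ran from -5.13 (-10.47 to -2.57) in the early round cells led by Gm14459, where KO had 1 UMI, to -2.77 (-2.99 to -2.55) in the Cd46 cluster.

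Outside the germ line 1700063D05Rik was also lower in KO, with 25 and 12 UMIs in Leydig-like cells, 34 and 9 in Sertoli-like cells and 35 and 7 in macrophage-like cells. The ratios were -4.37 (-5.49 to -3.32), -5.25 (-6.50 to -4.16) and -3.62 (-5.04 to -2.43). Shares of spermatid markers in the same classes were set beside these values. In WT Leydig-like cells 1700063D05Rik was at 12.1% of its highest germ cell level, beside 11.7% for the mid round and 4.38% for the elongating spermatid markers. In WT Sertoli-like cells it was at 37.2%, beside 5.77% and 46.3%. In KO these shares were 4.63% beside 2.96% and 3.96% in Leydig-like cells, and 7.66% beside 4.01% and 10.9% in Sertoli-like cells. In macrophage-like cells it was at 54.2% beside 45.8% and 24.7% in WT, and at 34.6% beside 29.6% and 16.1% in KO. In spermatogonia-like cells it was at 12.1% beside 8.84% and 9.43% in WT, and at 10.4% beside 3.93% and 5.49% in KO. In WT early spermatocyte-like cells it was at 14.3% beside 6.52% and 3.46%. The part of spermatid RNA in the values of these somatic and early germ cell classes was not tested.

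**Figure D3:**
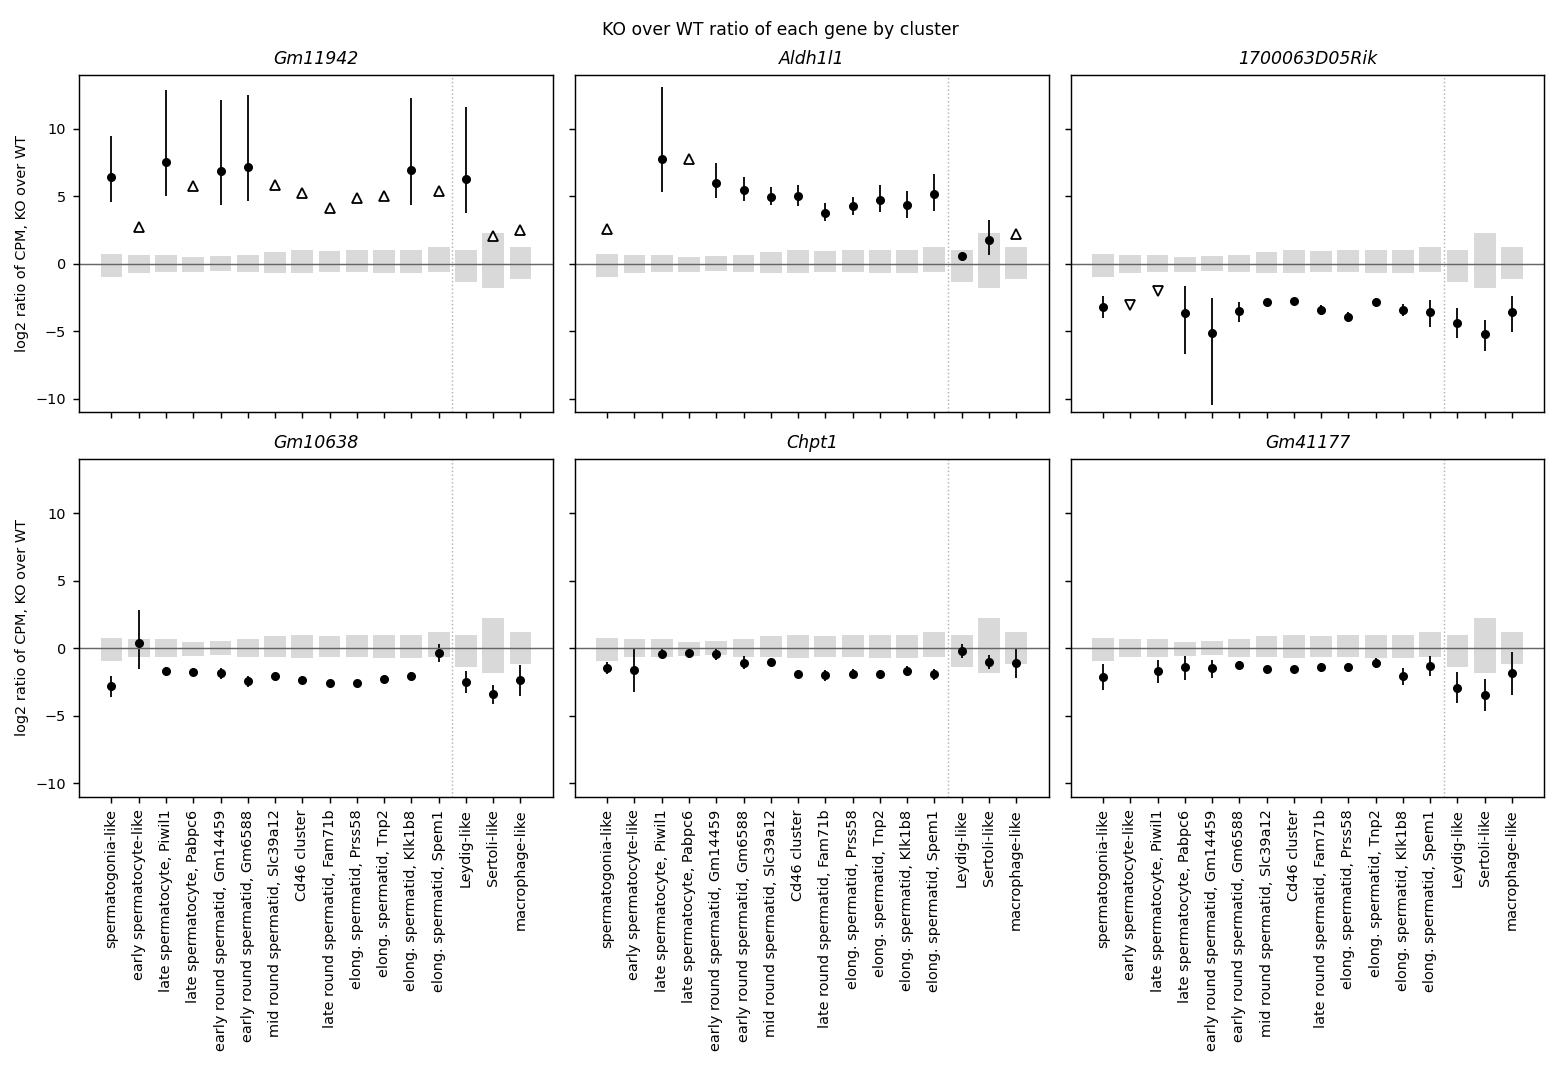
Log2 ratio of CPM, KO over WT, of each member by cluster, with exact 95% intervals (points) or, where a library had no UMI, the bound at 3 counts (open triangles). Grey bars span the 5th to 95th percentile of all genes tested in that cluster, somatic classes stand right of the dotted line, and the ratio of Chpt1 moves away from 0 between the early and the later spermatid clusters.

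Gm10638 shares bases with a neighbour on the other strand. It lies at chr8:86745699-86746603 on the plus strand, and its first part overlaps the start of Siah1a, a ubiquitin ligase gene on the minus strand, with 118 bases common to the transcripts. Pooled germ cells held 9645 UMIs in WT and 1523 in KO, at 123 (121 to 125) and 23.0 (21.9 to 24.2) CPM. It was found in 61.4% of WT and 21.5% of KO cells, and the log2 ratio was -2.42 (-2.50 to -2.34), or -2.13 with equal weight.

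Both libraries had 2 stages of higher Gm10638 level. In WT it was at 76.9 CPM in the Piwil1 cells, fell to 46.8 CPM in the Gm6588 cells and rose to 271 CPM in the Prss58 cells. In KO the same clusters had 23.5, 8.59 and 45.2 CPM. In the Spem1 cells WT dropped to 25.4 CPM and KO was at 20.2 CPM, and the ratio of -0.33 (-1.02 to 0.31) was within counting error. The early spermatocyte-like cluster, with 3 and 12 UMIs, was the only cluster with a higher value in KO, at 0.36 (-1.53 to 2.83), and the interval lay below 0 in 11 of 13 clusters. Siah1a was lower as well, with 668 and 395 UMIs and a pooled ratio of -0.51 (-0.70 to -0.33), or -0.70 with equal weight. Its reads and those of Gm10638 in the shared bases cannot be told apart without strand. Somatic cells held few UMIs of Gm10638, with 22 in WT and 38 in KO Leydig-like cells, 36 and 34 in Sertoli-like cells and 23 and 11 in macrophage-like cells. The log2 ratios there were -2.52 (-3.31 to -1.69), -3.42 (-4.14 to -2.70) and -2.36 (-3.55 to -1.27), beside the spermatid marker shares given above.

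The 2 other Siah ligase genes gave a mixed picture. Siah2 had 127 CPM in WT and 73.6 CPM in KO germ cells, a ratio of -0.79 (-0.84 to -0.74), and Siah1b had 3.42 and 18.7 CPM, a ratio of 2.45 that came to 0.52 with equal weight per cluster. In Leydig-like cells Siah2 was called lower, at -2.13 (-2.62 to -1.61), and Siah1a at -0.40 (-1.21 to 0.52) was not.

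Chpt1 lies at chr10:88452745-88504073 on the minus strand. Pooled germ cells held 4072 UMIs in WT and 1072 in KO, at 51.9 (50.3 to 53.5) and 16.2 (15.2 to 17.2) CPM, found in 44.0% and 17.4% of cells. The log2 ratio was -1.68 (-1.78 to -1.58), or -1.52 with equal weight.

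The ratio of Chpt1 moved with stage beyond counting error. In the late spermatocyte-like cells led by Piwil1, WT had 32.4 CPM and KO 24.6 CPM, a ratio of -0.40 (-0.74 to -0.06). The Pabpc6 cells at -0.36 (-0.75 to 0.02) and the Gm14459 cells at -0.43 (-0.90 to 0.02) did not differ beyond counting error. The ratio was -1.06 (-1.53 to -0.61) in the Gm6588 cells, -1.01 (-1.32 to -0.72) in mid round spermatid-like cells, and between -1.98 and -1.65 in the 6 clusters from the Cd46 cluster on. In WT the level climbed from 18.2 CPM in the Gm6588 cells to 172 CPM in the Spem1 cells, whereas in KO it went from 8.74 to 45.5 CPM. Spermatogonia-like cells differed too, with 38.6 and 14.1 CPM and a ratio of -1.45, beside the spermatid marker shares given above for these cells.

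In Leydig-like cells Chpt1 had 33.7 (23.5 to 46.9) CPM in WT and 28.9 (25.7 to 32.4) CPM in KO, and the ratio of -0.22 (-0.73 to 0.33) did not differ from 0 beyond counting error. Sertoli-like cells had 84.7 and 41.9 CPM, a ratio of -1.02 (-1.52 to -0.48). There Chpt1 was at 49.3% (WT) and 92.1% (KO) of its highest germ cell level. The elongating spermatid markers were at 46.3% and 10.95%, and the mid round markers at 5.77% and 4.01%. The part of spermatid RNA in these Chpt1 values was not tested. Chpt1 overlaps Sycp3, a component of the meiotic chromosome axis, on the opposite strand, and their transcripts share 420 bases at full identity. Sycp3 reached 3212 CPM in WT and 3424 CPM in KO at its highest, and its ratio was 1.10 (1.06 to 1.15) pooled and 0.19 with equal weight per cluster. Chpt1 transcripts matched transcripts of 1344 genes, Sycp3 included, over at least 100 bases at 90% identity, while 1700063D05Rik matched those of 10 genes, and how reads with several matches were counted is not given in the sources used here.

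Gm41177 lies at chr14:65172355-65185432 on the plus strand, and no other transcript matched its own over 100 bases at 90% identity. Pooled germ cells held 3221 UMIs in WT and 904 in KO, at 41.1 (39.7 to 42.5) and 13.7 (12.8 to 14.6) CPM, found in 34.7% and 13.2% of cells. The log2 ratio was -1.59 (-1.70 to -1.48), or -1.48 with equal weight. The stages were alike in both libraries, with a maximum in the Cd46 cluster of 80.1 CPM in WT and 28.0 CPM in KO. The ratio stayed between -2.15 in spermatogonia-like cells and -1.11 in the elongating cells led by Tnp2, and the interval lay below 0 in 12 of 13 clusters. The value in spermatogonia-like cells stood beside the spermatid marker shares given above for them. Leydig-like cells held 13 and 17 UMIs, Sertoli-like cells 14 and 13, and macrophage-like cells 10 and 7. The values at -2.92 (-4.05 to -1.76), -3.44 (-4.65 to -2.25) and -1.81 (-3.44 to -0.27) stood beside the spermatid marker shares given above. Gm30008, a noncoding RNA that overlaps Gm41177 on the opposite strand, stood at -0.37, and at -0.41 with equal weight.

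The surroundings of the members were examined gene by gene. Of 40 genes that overlap a member or are among the 3 nearest on each side with at least 100 UMIs in germ cells, 9 were called higher and 0 lower in pooled germ cells, beside 20.6% and 1.38% of all genes, and 2 higher and 0 lower with equal weight per cluster. Those 2 were Ubash3b and AC160966.1, both near 1700063D05Rik. Ubash3b, a regulator of tyrosine kinase signalling, lies 30.7 kb before it and had 191 and 417 UMIs, a ratio of 1.37 (1.12 to 1.63). AC160966.1, a noncoding transcript 585.2 kb after it, had 1 UMI in WT and 1453 UMIs in KO, with a ratio of 10.75 (8.27 to 16.06). It passed the limit of 100 UMIs through its KO counts alone, so nothing is read from its being called higher. Its KO level was 9.36 CPM in the Gm14459 cells and 22.7 to 44.6 CPM from mid round spermatid-like cells on, and 12 of 13 WT clusters held none. The other 38 genes lay between -0.70 and 0.79 with equal weight. Within 1 Mb, 5 of 17 tested genes were called higher and 2 lower around 1700063D05Rik, and 6 of 24 higher around Aldh1l1. The counts of higher genes were 2 of 14 around Gm11942, 1 of 17 around Gm10638, 2 of 12 around Chpt1 and 4 of 19 around Gm41177, with 0 lower around these 5. Against the 20.6% of all genes called higher, nothing is read from the counts of higher genes. The 2 lower genes of 17 around 1700063D05Rik stand beside 1.38% of all genes called lower, and their cause was not tested.

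**Figure D4:**
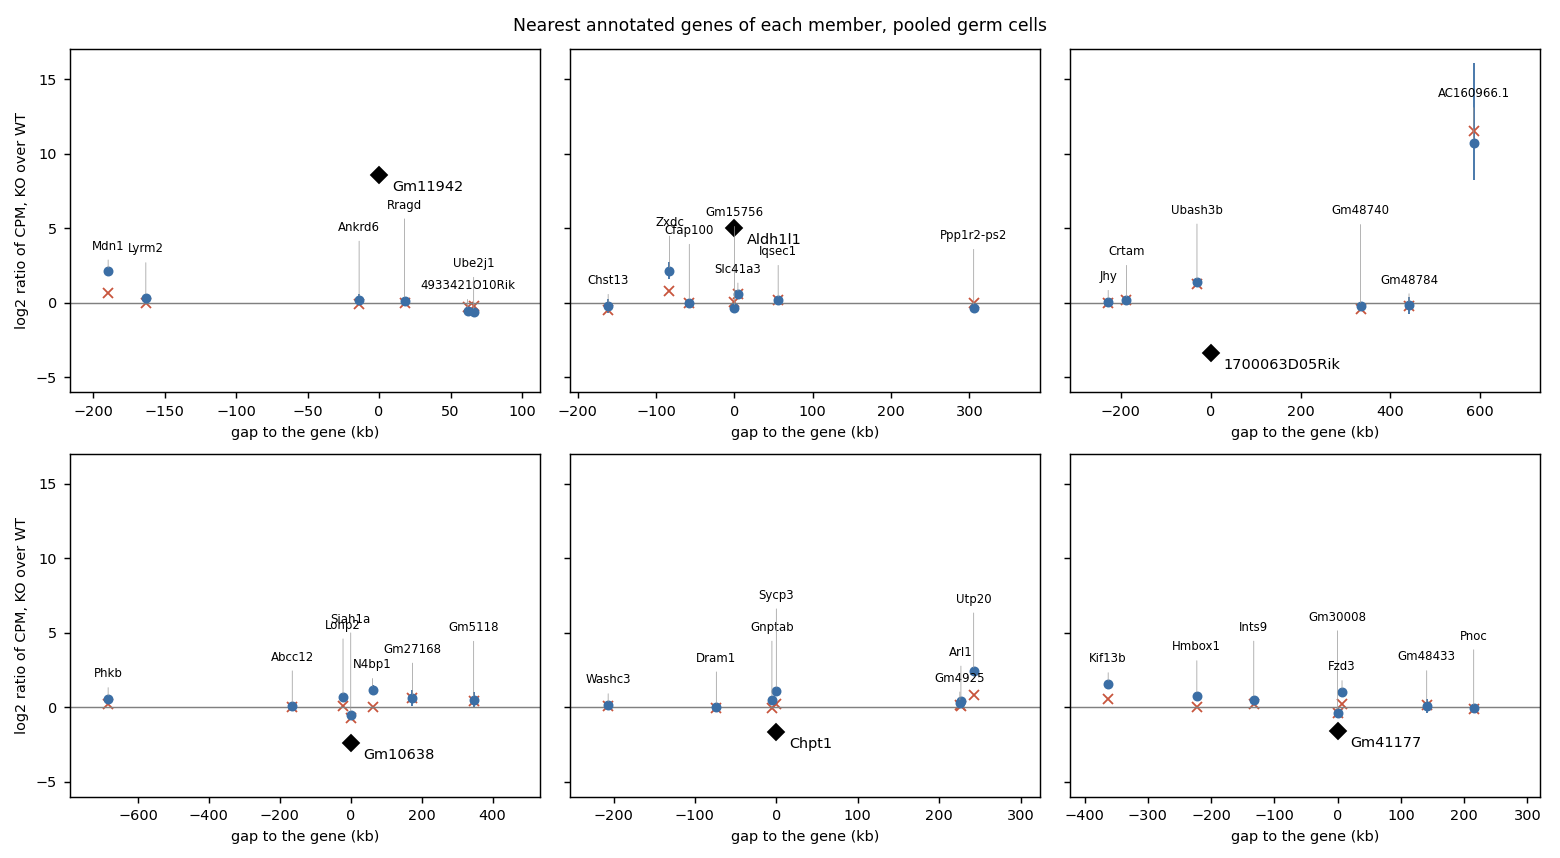
Log2 ratio of CPM, KO over WT, in pooled germ cells of each member (black diamond at 0) and of the nearest annotated genes against the gap in kb (negative before the member in genome order), as the pooled ratio with its 95% interval (blue) and with equal weight per cluster (red crosses). AC160966.1 at 10.75 stands apart, and most other genes lie close to 0 with equal weight.

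The genes most like each member over 26 points, the 13 germ clusters in both libraries, were found by Pearson correlation of log2(CPM + 1) among 17307 genes. The points share libraries and depth, and they include the KO over WT difference on which the members were chosen, so these are descriptions. Each gene named below had a pooled ratio in the direction of its member. A high r is therefore not read as a shared course over stages. Gm11942 was most like Ly6e (r = 0.968), Clu (0.963) and Gm8210 (0.962). Clu is on the Sertoli marker list. Aldh1l1 was most like Prlr (0.885), Ptgds (0.868) and Hsd3b6 (0.867), of which Ptgds and Hsd3b6 are on the Leydig marker list. 1700063D05Rik was most like Chadl (0.882), Cyp4f37 (0.881) and Tes3-ps (0.873). Gm10638 was most like Myo7b (0.813), Gm27178 (0.808) and Fbll1 (0.808). Chpt1 was most like Fxyd2 (0.896), the ion transport regulator that ranked between the members, followed by Gm4366 (0.844) and Tlr9 (0.785). Gm41177 was most like Tescl (0.895), Gm31522 (0.892) and Bpgm (0.886).

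The remaining genes of the pathways of both enzymes were taken from hand-written lists. Of 27 other genes of folate metabolism, 21 were tested in pooled germ cells, and 13 were called higher and 0 lower, beside 20.6% and 1.38% of all genes, with a median log2 ratio of 1.24 where the median over all genes was 0.26. With equal weight per cluster the median of the list was 0.29. Atic, a purine synthesis enzyme, went from 2.89 pooled to 0.40 with equal weight, whereas Folr1, a folate receptor, went from 2.45 to 2.59. Folr1 had 688 and 563 CPM in Leydig-like cells and 0.382 and 2.09 CPM in pooled germ cells. The lowest ratio in the list was that of Gldc, a subunit of the glycine cleavage system, at -0.27 (-0.52 to -0.03). In Leydig-like cells 16 genes were tested and none was called in either direction, beside 4.85% of all genes called higher and 9.72% lower. The median of the list there was 0.02.

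Of 24 other genes of phosphatidylcholine and phosphatidylethanolamine synthesis, 19 were tested in germ cells. Of these, 3 were called higher and 0 lower, beside 20.6% and 1.38% of all genes. Their median of 0.20 stayed at 0.20 with equal weight. Cept1, which encodes a choline/ethanolamine phosphotransferase related to Chpt1, had 22 and 145 UMIs, a ratio of 2.97 (2.31 to 3.68), or 1.07 with equal weight. Slc44a3, of the choline transporter-like family, was lowest at -0.77 (-1.30 to -0.26). In Leydig-like cells 12 were tested, and 1 was called, higher in KO, beside 4.85% of all genes called higher and 9.72% lower. It was Pemt, which methylates phosphatidylethanolamine to phosphatidylcholine, with 25.1 and 109 CPM and a ratio of 2.12 (1.56 to 2.74).

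Within the KO library, Aldh1l1 and 1700063D05Rik were seldom found in the same cell. Cells of the 7 clusters from mid round spermatid-like cells on were thinned to 5729 UMIs each, which left 2330 KO cells. Among 565 of these with an Aldh1l1 UMI, 10 also held a 1700063D05Rik UMI, or 1.77% (0.852 to 3.23). Among 1765 without one, 164 did, or 9.29% (7.98 to 10.7). As a background, 0.605% of thinned KO Leydig-like cells had a UMI of it (median 7872 UMIs before thinning, against 6416 to 14141.5 in the spermatid clusters). The share of cells was lower beside Aldh1l1 in each of the 7 clusters, at 0 to 3.03% against 3.80 to 13.5%. The shares beside Aldh1l1 rested on 0 to 3 cells per cluster. The intervals with and without Aldh1l1 lay apart only in mid round spermatid-like cells and in the Cd46 cluster, and overlapped in the others. Over the 7 clusters together the ratio of shares was 0.191, where the other 14 of the 15 pairs of members had ratios of 0.857 to 1.15. Without thinning it was 50 of 1067 cells (4.69%) against 294 of 1556 (18.9%), and without called doublets 9 of 543 (1.66%) against 160 of 1708 (9.37%). In WT, 14 of 34 cells with Aldh1l1 held the RNA (41.2%, 24.7 to 59.3) against 1878 of 3523 without (53.3%), a difference within counting error.

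**Figure D5:**
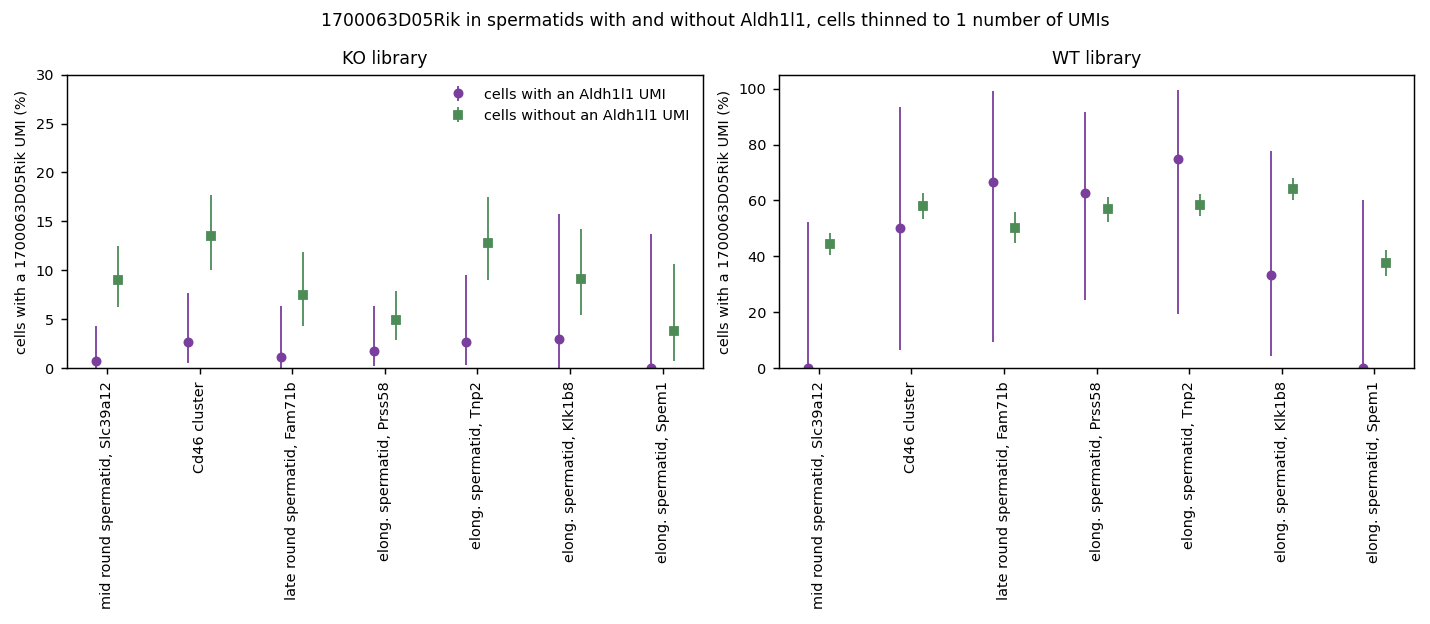
Percent of cells with a 1700063D05Rik UMI among cells with (purple circles) and without (green squares) an Aldh1l1 UMI, by spermatid cluster, in the KO (left) and WT (right) libraries after thinning, with exact 95% binomial intervals. In KO the purple points lie at 0 to 3.03%, each from 0 to 3 cells with a 1700063D05Rik UMI, and the green points at 3.80 to 13.5%. In most KO clusters the 2 intervals overlap, and in WT the intervals of the purple points are wide.

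The other members did not follow this division. Using all UMIs, 1017 KO spermatids held Aldh1l1 and no 1700063D05Rik, 294 held 1700063D05Rik and no Aldh1l1, 50 held both and 1262 neither. Gm11942 was at 14.6 CPM in the first and 14.7 CPM in the next of these sets, and Chpt1 at 16.9 and 14.9 CPM. Gm10638 was at 32.4 and 28.5 CPM, and Gm41177 at 23.2 and 20.6 CPM. Both sets held 1 Alkbh5 UMI each. The 294 cells held 107 CPM of 1700063D05Rik, against 150 CPM over all WT spermatids, but they were chosen for holding it. The variance of UMIs of 1700063D05Rik over cells was 2.29 times the mean in KO spermatids and 2.36 times in WT spermatids. AC160966.1 was in 15.7% of thinned KO spermatids, and 1700063D05Rik was found in 9.29% (6.52 to 12.7) of these and in 7.13% (6.03 to 8.36) of the rest. The barcodes carry no label of the animal they came from, and the cause of this division was not tested.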

How the data were processed

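The authors deposited raw counts, the number of UMIs per gene and cell barcode, for 1 WT and 1 KO library made with the GEXSCOPE kit. Per the methods and labels, reads were trimmed with fastp, aligned with STAR 2.5.3a and counted with featureCounts 1.6.2. They name GRCh38 with Ensembl 92, a human build, although the symbols are those of the mouse. The study kept cells with more than 500 genes. Strand use and the calling of barcodes before that step are not given in the sources used here. Positions and transcripts came from GENCODE vM21 on GRCm38, where 35502 of 36547 symbols were found.

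All deposited barcodes passed that limit and were used. The study reports fewer cells per library after quality control, and the further steps are not given in the sources used here. Libraries were integrated in R 4.3.3 with Seurat 5.3.0 (2000 features, 20 anchor dimensions, 30 components, resolution 0.3). Scrublet in scanpy 1.11.5 called 243 WT and 348 KO doublets, which were kept. A name needed 3 markers, each in 10% of cells and 2-fold higher than elsewhere. A cluster stayed unnamed where its 10 leading genes held more markers of another class. A gene was tested in a class with at least 100 UMIs and called at a log2 ratio of at least 1. Counts were summed per class and library. Intervals (95%) are exact Poisson, exact conditional for ratios and Clopper-Pearson for shares. Thinning left out 362 WT and 914 KO cells. The calculation was tested on simulated Poisson sums, the model the intervals assume, so the test does not cover spread between cells beyond counting. Named were the members, Alkbh5, their neighbours, the 3 genes most alike, the genes around them in the ranking and the extremes of the lists. Members and lists were chosen with earlier results of these data known, and the cells were split by Aldh1l1 and 1700063D05Rik after their values were seen. The aligned sequences are not reported here.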

Additional observations from a re-analysis of the deposited data

How the results depend on the processing

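With 1 library per genotype, counting intervals do not cover differences between animals, dissociations or libraries, and the genotype cannot be told apart from the library. No paired analysis was possible because each genotype has 1 library. Depth limits the somatic classes most, since 94 Leydig-like, 48 Sertoli-like and 26 macrophage-like WT cells gave few UMIs of any member. The alternatives were cells with over 1000 genes, no doublets, totals leaving out mitochondrial and ribosomal protein genes, thinned cells, equal weight per cluster and at least 50 UMIs per gene, and resolution 0.8, which gave 22 clusters, 17 of them germ cells. All 6 pooled germ cell ratios kept their direction under each but the limit of 50 UMIs, which was applied to the counts over all genes only. Equal weight per cluster moved 1700063D05Rik from -3.37 to -3.25, Gm10638 from -2.42 to -2.13 and Chpt1 from -1.68 to -1.52. Thinning moved them to -3.56, -2.54 and -1.79. In Leydig-like cells, leaving out doublets moved 1700063D05Rik from -4.37 to -5.21 and Gm41177 from -2.92 to -3.72, and thinning moved Gm41177 to -3.77 and left Gm11942 with no WT UMI, at a log2 ratio of at least 3.60 in place of 6.26. At 50 UMIs per gene, 693 genes in place of 381 were called higher in Leydig-like cells and 1205 in place of 763 lower.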

Other observations

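A few other genes differed between KO spermatids that held Aldh1l1 without 1700063D05Rik and those that held 1700063D05Rik without Aldh1l1, and they were chosen after their values were seen. Of 8832 other genes compared, 10 were at least 2-fold higher in the latter cells and 22 in the former, with a median log2 ratio of 0.05. Abca6, a member of the ABC transporter family on chromosome 11, had 195 CPM beside 1700063D05Rik and 19.99 CPM beside Aldh1l1, a log2 ratio of 3.29 (3.10 to 3.47), against 12.0 CPM in WT spermatids. Smco2, on the same chromosome as Aldh1l1 at a distance of 56.36 Mb, had 609 and 135 CPM, a ratio of 2.17 (2.09 to 2.25), against 86.8 CPM in WT. In the other direction, the pseudogene Pcna-ps2 had 5 UMIs beside 1700063D05Rik and 149 beside Aldh1l1, a ratio of -3.12 (-4.76 to -1.86). Ptgds, which is on the Leydig marker list, followed with 143 and 1295 UMIs, a ratio of -1.40 (-1.66 to -1.15). The part of Leydig cell RNA in the division of the cells was not tested.

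After thinning, 1700063D05Rik was found in 12.9% (11.03 to 14.9) of KO spermatids with a Smco2 UMI and in 1.53% (0.895 to 2.44) of those without, while WT had 51.8% and 53.7%. With Abca6 the KO shares were 18.9% (15.0 to 23.2) and 5.35% (4.39 to 6.43), and the WT shares 51.1% and 53.3%. These shares, and the CPM of both genes given above, pool the 7 spermatid clusters and were not split by cluster. Over these clusters the KO level ran from 15.2 to 328.7 CPM for Smco2 and from 1.68 to 104.5 CPM for Abca6. The part of stage in these differences and their cause were not tested.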
